A study of Arabidopsis thaliana with 3 samples.

Results

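ICL (AT3G21720) encodes isocitrate lyase, the first enzyme particular to the glyoxylate cycle. The genes considered were ICL, the malate synthase gene MLS (AT5G03860) and the phosphoenolpyruvate carboxykinase gene PCK1 (AT4G37870), matched by symbol or locus code to array spots with 1 listed gene. Of these 3 genes, ICL had 1 such spot and is described here as 1 of 9253 measured genes. MLS and PCK1 had no listed spot and were not analysed here. ICL was selected on its measured ratios: with earlier results of these arrays known, it had the highest mean among the genes called higher in the mutant. Its ratios are therefore given as a description, without a test.

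The study compared Arabidopsis thaliana plants carrying T-DNA insertions in 2 genes, nst1-1 and nst3-1, with wild-type plants. The products of NST1 and NST3 are NAC-domain transcription factors that switch on secondary wall formation in stem fibres, and per the labels the double mutant makes no secondary xylem in the stem or hypocotyl. RNA came from the bottom 4 cm of inflorescence stems that stood 12 to 17 cm high, from untreated plants kept in short days (8 h light, 16 h dark), and plant age was not given. Each of 3 mutant samples, called lines 1, 2 and 3, shared a two-colour array with wild-type RNA. The mutant was in Cy5 for lines 1 and 3 and in Cy3 for line 2. The design text calls the lines independent, but all 3 bear the same allele names, and whether the wild-type RNA was 1 extract or several was not given. NST1 and NST3 had no listed spot, so the genotype was not checked through them.

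The glyoxylate cycle lets plant cells turn acetyl-CoA into sugar. Isocitrate lyase splits isocitrate into succinate and glyoxylate, malate synthase joins glyoxylate to a further acetyl-CoA, and the carbon is thereby spared the decarboxylations of the TCA cycle. In Arabidopsis the pathway is best known from germinating seedlings, where peroxisomal beta-oxidation of seed oil supplies the acetyl-CoA and phosphoenolpyruvate carboxykinase leads the resulting organic acids to sugar. Isocitrate lyase is also known from senescing and sugar-starved tissue.

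The arrays did not stand equally close to each other. Taken across genes, and genes are no independent replicates, Pearson's r between arrays was 0.784 for lines 2 and 3, and 0.488 and 0.477 for line 1 with each of them. Values without line 1 are therefore given beside the listed genes whose call changes without it. The limma fit without line 1 called 1157 of 9253 genes, against 314 with all lines. A call gained in that fit is therefore common, and nothing particular to a gene is read from it. All values are log2 ratios of mutant over wild type. Their direction assumes that the deposited numbers are Cy5 over Cy3, with dyes as the labels give them, and their size assumes log10. Neither is stated with the files. If the ratios were Cy3 over Cy5, every direction would turn. Under the direction taken here, all 4 measured secondary-wall genes were below 0 on all 3 arrays.

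ICL was higher in the mutant on all 3 arrays. Its log2 ratio was 1.40 in line 1, 2.48 in line 2 and 2.52 in line 3, with a mean of 2.13 ± 0.64 (SD, n = 3 lines). As fold values these were 2.63, 5.58 and 5.73, and the mean corresponded to 4.38-fold. Lines 2 and 3, which had opposite dyes, lay together, and line 1 was the lowest. Lines 1 and 3 had the mutant in the same dye, Cy5, and still differed. For line 2, the only array with the mutant in Cy3, dye and line cannot be told apart. The difference between lines 2 and 3 was 0.037, and 14.3% of the genes had a smaller one. Lines 2 and 3 exceeded line 1 by 1.09 and 1.12 on the log2 scale. The SD of ICL was wider than that of 93.8% of the genes. Without line 1 the mean was 2.50.

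**Figure D1:**
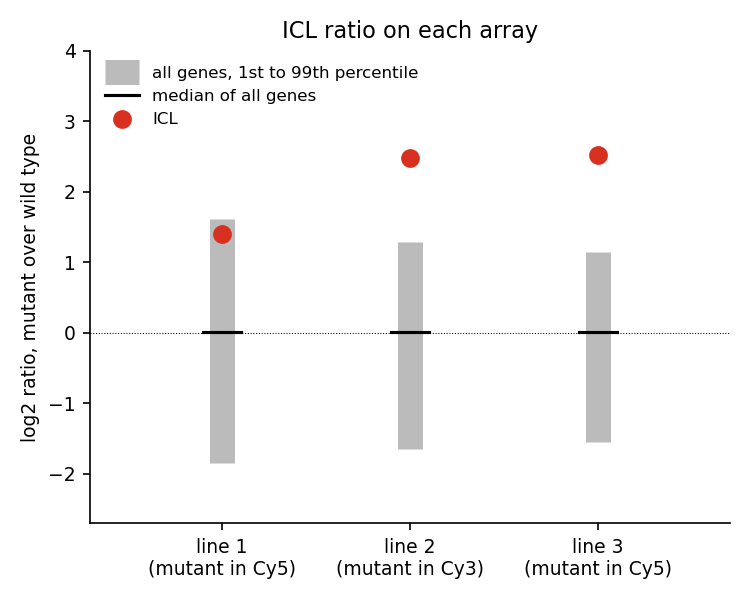
Log2 ratio of mutant over wild type (vertical axis) for ICL on each of the 3 arrays (red points), with the range from the 1st to the 99th percentile of all genes (grey bars) and the median of all genes (black ticks). ICL lies inside the grey bar in line 1, at 1.40, and far above it in lines 2 and 3, at 2.48 and 2.52.

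The place of ICL among all genes also differed between the arrays. It ranked 141st of 9253 genes in line 1, 7th in line 2 and 6th in line 3. In line 1 it lay above 98.5% of the genes, and below the 99th percentile of that array. By its mean it ranked 8th. The limma fit over all genes called 73 genes higher (0.789%) and 241 lower (2.60%), together 3.39%, at an adjusted p under 0.05, or 175 and 344 with the arrays scaled to equal spread. ICL is 1 of the 73, a call that chose it and from which nothing is read.

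Of the 4 genes ranked next to ICL by mean, 3 were highest in line 1, where ICL was lowest. AT2G18690 and AT5G39670 ranked directly above it, with means of 2.26 ± 1.42 and 2.17 ± 1.69 (SD, n = 3 lines). MSRB5 (AT4G04830), a methionine sulfoxide reductase gene, and YUC6 (AT5G25620), a flavin monooxygenase gene of auxin synthesis, ranked directly below, at 2.01 ± 1.27 and 1.85 ± 0.53. AT2G18690, AT5G39670 and MSRB5 were highest in line 1, at 3.75, 4.02 and 3.45, and lowest in line 3, at 0.93, 0.71 and 1.04. ICL and YUC6 were lowest in line 1. Without line 1 the mean of MSRB5 was 1.29. The gaps between ICL and these means were smaller than the SD of ICL. Only 4 other genes stood at or above the lowest ICL ratio on every array, and they were singled out after their values were seen. These were DFR, dihydroflavonol reductase of anthocyanin synthesis, the glycosyltransferase gene UF3GT, AT1G03940 and AT4G16260.

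The genes most like ICL over the 3 arrays were found by the smallest Euclidean distance between their log2 ratios, a measure over 3 values that describes likeness only. YUC6 was nearest, at a distance of 0.517, against a median of 3.80 over all genes. Its log2 ratios of 1.24, 2.19 and 2.12 in lines 1, 2 and 3 lay below those of ICL in each line. AT5G04000 followed at 0.875, with 1.28, 1.80 and 1.98. The next were AT1G80130 at 1.06, SWEET17 (AT4G15920), a fructose carrier gene of the vacuole membrane, at 1.08, and AT3G28830 at 1.12. All 5 were lowest in line 1, as ICL was. Their means were 1.85 ± 0.53 for YUC6, 1.69 ± 0.36 for AT5G04000, 1.60 ± 0.60 for AT1G80130, 1.53 ± 0.51 for SWEET17 and 1.52 ± 0.89 for AT3G28830 (SD, n = 3 lines). As these genes were chosen by their likeness to ICL on the same ratios, their values are given without a test.

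**Figure D2:**
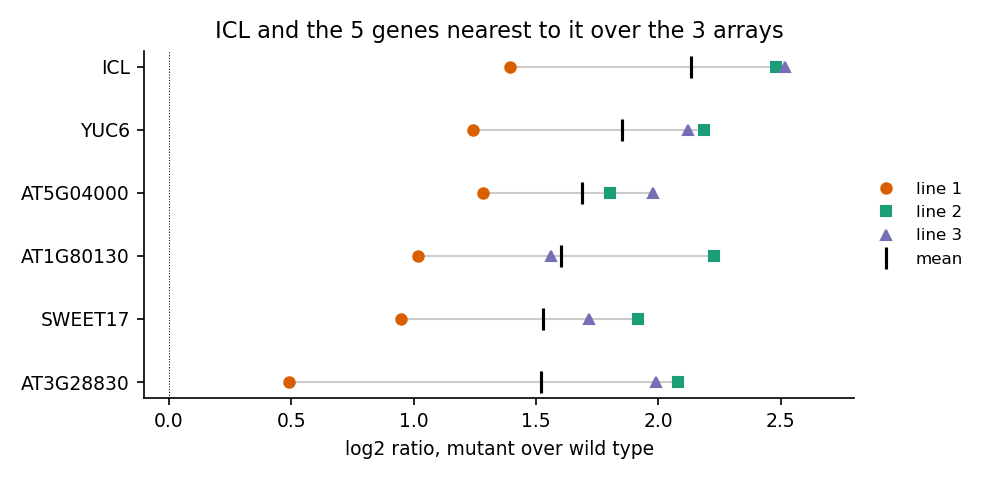
Log2 ratio of mutant over wild type (horizontal axis) for ICL and the 5 genes nearest to it, with 1 symbol per line and a black tick at the mean. In each of the 6 genes line 1 is the lowest, and no gene reaches the ICL value in line 3.

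None of the measured neighbours of ICL along the chromosome was called, against 3.39% of all genes. Of the 5 genes on each side in the order of the RefSeq gene table, 4 were measured. SGP2 (AT3G21700), 2 genes away, had log2 ratios of 0.09 in line 1, 1.56 in line 2 and 1.80 in line 3. It was thus high in the same lines as ICL, but near 0 in line 1, and did not pass the test (mean 1.15 ± 0.93, limma adjusted p = 0.171). Without line 1 SGP2 was among the 1157 of 9253 genes called, at 1.68 (limma adjusted p = 0.0195; from 0.0195 to 1 over the alternatives). The directly adjacent gene FOLB3 (AT3G21730) was at 0.30, 0.06 and -0.15, and AT3G21690 at 0.36, 0.00 and -0.22. UGT71B1 (AT3G21750), a glycosyltransferase gene, was at -0.55, 0.00 and 0.37. These last genes had means of 0.07 ± 0.22, 0.05 ± 0.29 and -0.06 ± 0.46.

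**Figure D3:**
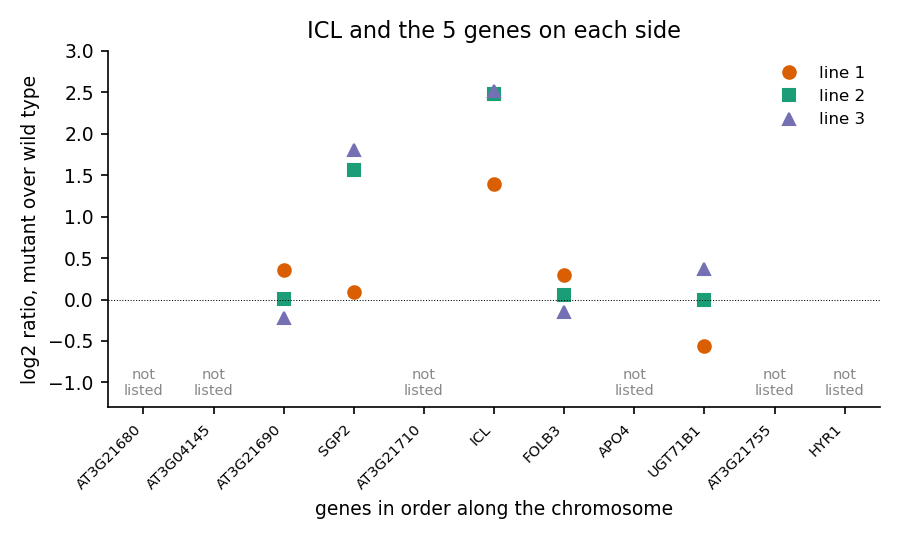
Log2 ratio of mutant over wild type (vertical axis) in the 3 lines for ICL and the 5 genes on each side, in their order along the chromosome (horizontal axis, not to scale), with genes that have no listed spot marked so. ICL is the highest in every line, and SGP2 is above 1.5 in lines 2 and 3 and at 0.09 in line 1.

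For the other genes of the pathway, 12 lists of metabolism and its known settings were used, with 57 measured genes of 222 listed, ICL and the other rule genes aside. None of the 57 was called higher by limma, against 0.789% of all genes, so that a count of 0 is near the share over all genes. Of the 57, 5 fell (8.77%, against 2.60% of all genes). At an unadjusted p under 0.05, 8 were higher (14.0%, against 13.9% of all genes). The median log2 ratio of the 57 was 0.01, as it was over all genes. A ratio above 0 on all 3 arrays was found for 28.1% of the 57 and 26.2% of all genes, and one below 0 on all 3 arrays for 29.8% and 23.9%. The 5 that fell were GAPC2, ACLA-2, ACLA-3, AT1G11860 and BZIP53. All 5 calls ended without line 2 (limma adjusted p from 0.203 to 0.280 over the 5), without line 3 (0.115 to 0.226), with a dye term (0.141 to 0.198) and with every spot fitted (0.0663 to 0.0783). Over all 9253 genes, none was called without line 2, without line 3 or with a dye term, and 69 with every spot fitted. These losses are thus not particular to the 5. Without line 1 all 5 were called (limma adjusted p from 0.0192 to 0.0389), among 9 lower and 2 higher of the 57. Over all 9253 genes that fit called 583 lower and 574 higher, against 241 and 73 with all lines. The main-fit share of 2.60% is thus no measure for these counts.

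The glyoxylate cycle itself was seen through ICL alone. None of the 8 further listed genes, which encode peroxisomal citrate synthases, aconitases and peroxisomal malate dehydrogenases, had a listed spot. From the list of phosphoenolpyruvate metabolism and gluconeogenesis, 4 of 19 genes were measured, and 1 fell. GAPC2 (AT1G13440), a cytosolic glyceraldehyde-3-phosphate dehydrogenase that works in glycolysis and gluconeogenesis, had log2 ratios of -0.95, -1.36 and -1.32 in lines 1, 2 and 3. It was lower in the mutant on every array, opposite to ICL, with a mean of -1.21 ± 0.22 (SD, n = 3 lines; limma adjusted p = 0.0359), which is 2.31-fold lower. PPDK (AT4G15530), pyruvate orthophosphate dikinase, which makes phosphoenolpyruvate from pyruvate, was at 0.15, 0.35 and 0.29. It was slightly above 0 on every array but did not pass (mean 0.26 ± 0.10, limma adjusted p = 0.165). TPI, triose phosphate isomerase, and AT5G42740 had means of 0.08 ± 0.25 and -0.10 ± 0.01 and did not pass.

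Of 21 listed genes that free fatty acids from oil and break them down, 4 were measured, with a median log2 ratio of -0.08. None was called, against 3.39% of all genes, so that the absence of a call is near that share. SDP1 (AT5G04040), the main lipase of oil mobilisation in seedlings, was at 0.20, -0.31 and -0.18 in lines 1, 2 and 3. Its relative SDP1-LIKE (AT3G57140) was at -0.07, -0.07 and -0.12. AIM1, a multifunctional enzyme of peroxisomal beta-oxidation, had a mean of -0.08 ± 0.15, and SDRB, a dienoyl-CoA reductase of the same organelle, one of 0.19 ± 0.03. SDRB was above 0 and SDP1-LIKE below 0 in all 3 lines, whereas SDP1 and AIM1 changed sign between line 1 and the others. The limma adjusted p-values ranged from 0.212 for SDRB to 0.678 for SDP1. The 1 measured gene of peroxisome biogenesis, PEX4, was at -0.07 ± 0.24, and AT5G19760, the 1 measured gene of the list of organic acid carriers, at -0.27 ± 0.16.

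In the list of acetate and acetyl-CoA supply, the genes with negative means were the 4 measured genes for subunits of ATP-citrate lyase. This cytosolic enzyme cleaves citrate into acetyl-CoA and oxaloacetate, and so draws on the citrate from which isocitrate is also made. ACLA-2 (AT1G60810) had log2 ratios of -1.85 in line 1, -1.11 in line 2 and -1.70 in line 3. It fell, with a mean of -1.55 ± 0.39 (SD, n = 3 lines; limma adjusted p = 0.0417), which is 2.93-fold. ACLA-3 (AT1G09430) was at -0.75, -0.97 and -0.96, and fell too, with a mean of -0.89 ± 0.12 (limma adjusted p = 0.0374), or 1.86-fold. The third gene for this subunit, ACLA-1 (AT1G10670), was at -1.13, -0.62 and -0.81. It was below 0 on every array but missed the threshold (mean -0.85 ± 0.26, limma adjusted p = 0.0542). It passed in 5 of 11 alternatives, among them the looser threshold of 0.1. The limma adjusted p-values ran from 0.0382 to 1 over all of them, the lowest without line 1, where its mean was -0.71. ACLB-1 (AT3G06650), the other subunit, was at -1.08, -0.38 and -0.09, strongest in line 1, and did not pass (mean -0.52 ± 0.51, limma adjusted p = 0.24). ACS, acetyl-CoA synthetase, and PDC2, a pyruvate decarboxylase, had means of 0.23 ± 0.38 and 0.27 ± 0.25, highest in line 1 at 0.67 and 0.49, and did not pass. All 4 lyase genes were below 0 in every line, as were 23.9% of all genes.

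**Figure D4:**
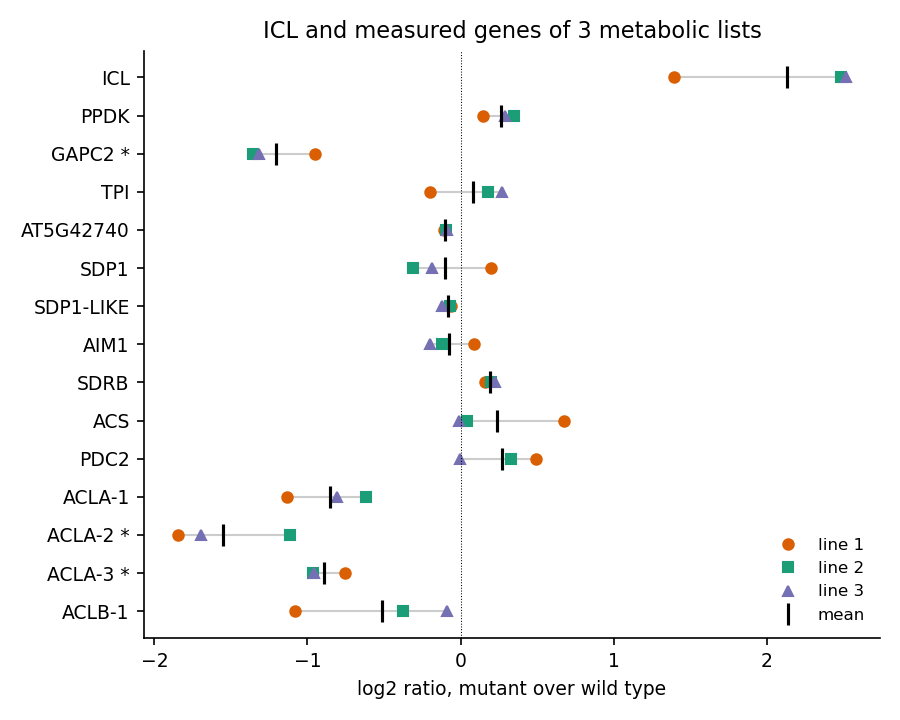
Log2 ratio of mutant over wild type (horizontal axis) for ICL and the measured genes of the lists of phosphoenolpyruvate and gluconeogenesis, oil and beta-oxidation, and acetyl-CoA supply, with 1 symbol per line, a black tick at the mean and an asterisk on genes called lower. ICL is alone above 1, while GAPC2 and the ATP-citrate lyase genes lie below 0 in every line.

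The TCA cycle, which competes with isocitrate lyase for isocitrate, had the most measured genes of any list, 15 of 26. None passed. Their median log2 ratio was 0.12, and 9 of the 15 (60%) were above 0 in every line, against 26.2% of all genes. The highest means were those of AT5G55070, AT4G26910 and AT5G23250, at 0.51 ± 0.32, 0.46 ± 0.42 and 0.43 ± 0.22 (SD, n = 3 lines). All 3 were highest in line 1, at 0.87, 0.93 and 0.68, and at or below 0.33 in lines 2 and 3. The lowest on this list was cICDH (AT1G65930), the cytosolic NADP-dependent isocitrate dehydrogenase. It is not part of the mitochondrial cycle but also uses isocitrate. Its ratios were -0.68, -0.71 and -1.06, below 0 on every array, and it missed the threshold narrowly (mean -0.82 ± 0.21, limma adjusted p = 0.0502). It passed in 4 of 11 alternatives, among them the looser threshold of 0.1. The limma adjusted p-values ran from 0.0413 to 1, the lowest without line 1, where its mean was -0.89. The succinate dehydrogenase genes SDH2-2 and SDH1-2 followed at -0.12 ± 0.21 and -0.07 ± 0.10.

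Glyoxylate is also formed and used in photorespiration, and 11 of 34 genes on that wider list were measured. Among them 1 fell, with a median of -0.10 for the list. AT1G11860 was at -1.48, -1.31 and -1.06 in lines 1, 2 and 3, lower in every line, with a mean of -1.28 ± 0.21 (SD, n = 3 lines; limma adjusted p = 0.0328), which is 2.43-fold. HPR (AT1G68010), the peroxisomal hydroxypyruvate reductase, was at -0.63, -1.17 and -1.10. It was below 0 throughout and did not pass (mean -0.97 ± 0.29, limma adjusted p = 0.0511). HPR did pass in 4 of 11 alternatives, among them the looser threshold of 0.1. The limma adjusted p-values ran from 0.0223 to 1, the lowest without line 1, where its mean was -1.14. AT2G35120 was at -0.80 ± 0.57, with -1.46 in line 1. Without line 1 it passed, at -0.47 (limma adjusted p = 0.0496; from 0.0496 to 1 over the alternatives). The highest means were small. AAH, the allantoate amidohydrolase of purine breakdown, was at 0.33, 0.34 and 0.33, the hydroxyacid oxidase HAOX2 had a mean of 0.15 ± 0.09 and HAOX1 one of 0.12 ± 0.16. AAH was the most even of these across lines and did not pass (limma adjusted p = 0.092).

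Of 28 listed genes of the response to carbon starvation and darkness, 7 were measured, with a list median of 0.01. None was called higher, against 0.789% of all genes, and 1 fell, against 2.60%. BZIP53 (AT3G62420), a bZIP transcription factor gene of the sugar and energy response, was at -0.90, -0.63 and -0.86, lower in every line (mean -0.80 ± 0.14, SD, n = 3 lines; limma adjusted p = 0.0437), which is 1.74-fold. MCCA and MCCB, the subunits of methylcrotonyl-CoA carboxylase, and IVD, isovaleryl-CoA dehydrogenase, all enzymes of leucine breakdown, had means of 0.23 ± 0.08, -0.19 ± 0.22 and 0.06 ± 0.08. ETFQO, which feeds electrons from such breakdown to the respiratory chain, and D2HGDH had means of -0.40 ± 0.12 and 0.01 ± 0.13. None of these passed. AT5G38710 was at -0.12 in line 1, 1.15 in line 2 and 1.02 in line 3, so that line 1 stood apart as it did for ICL. It did not pass with all lines (mean 0.68 ± 0.70, limma adjusted p = 0.245), but did without line 1, at 1.09 (limma adjusted p = 0.0227; from 0.0227 to 1 over the alternatives).

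Leaf senescence and seed oil bodies are settings in which isocitrate lyase is known. From their lists, 3 of 18 and 2 of 24 listed genes were measured. None was called, against 3.39% of all genes, so that the absence of a call is near that share. WRKY53 (AT4G23810), a senescence regulator, was at 2.79 in line 1, 0.66 in line 2 and 0.20 in line 3. It was thus highest in the line where ICL was lowest, and its mean of 1.22 ± 1.38 did not pass (limma adjusted p = 0.271). Without line 1 its mean was 0.43 (limma adjusted p = 0.154). WRKY6 was at 0.85, -0.18 and 0.14, again highest in line 1. NOL, a chlorophyll b reductase gene, had a mean of -0.22 ± 0.19. The oleosin gene OLEO3, whose product coats oil bodies, was at 0.10 ± 0.15. CP1, a cysteine proteinase gene, was at -0.61, 0.43 and 0.57 and did not pass.

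The 3 loci listed as relatives of isocitrate lyase, a membership that the gene table does not state, were all measured. None was called, against 3.39% of all genes. AT1G21440 was at -0.18 in line 1, 0.91 in line 2 and 1.1 in line 3. It was above 0 only in the lines where ICL was highest, with a mean of 0.61 ± 0.69 (SD, n = 3 lines; limma adjusted p = 0.278). Without line 1 it passed, at 1.00 (limma adjusted p = 0.0286; from 0.0286 to 1 over the alternatives). AT1G77060 and AT2G43180 stayed near 0, at -0.02 ± 0.03 and -0.07 ± 0.07.

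**Figure D5:**
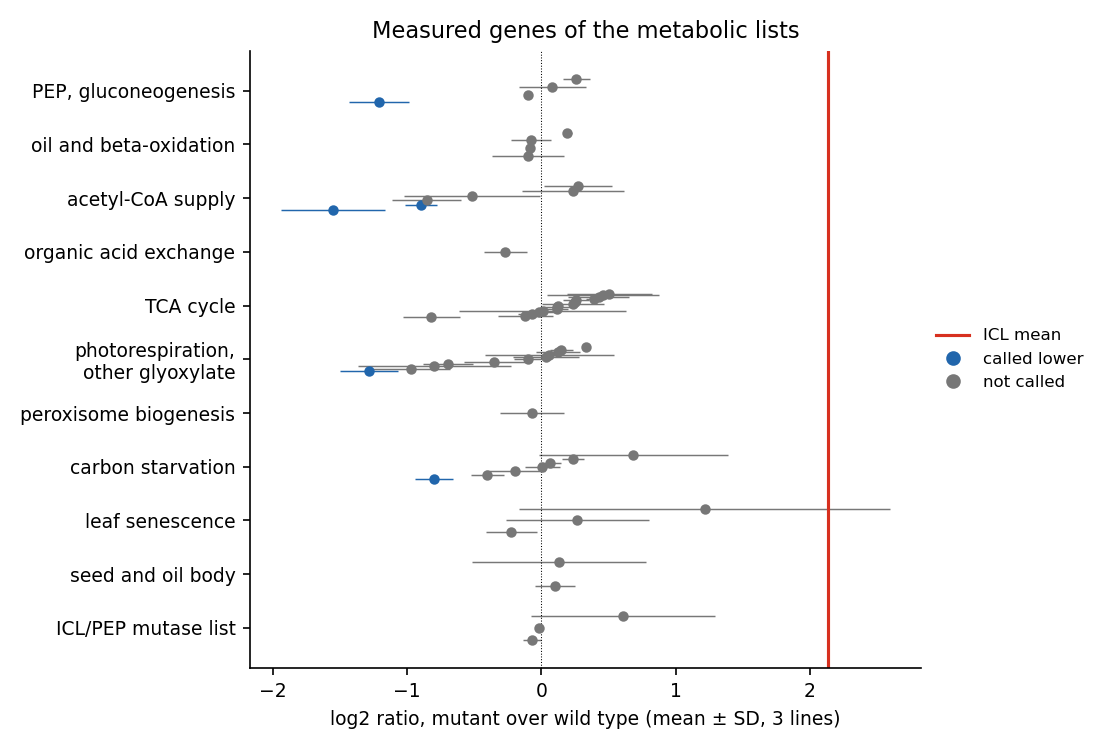
Mean log2 ratio of mutant over wild type (horizontal axis, bars are SDs over 3 lines) for each measured gene of 11 metabolic lists, with genes called lower in blue and genes not called in grey, and the ICL mean as a red line. No listed gene has a mean as high as the 2.13 of ICL, and the 5 blue genes lie between -1.55 and -0.80.

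Of the stem tissue markers, those of secondary walls and 1 of green cortex were called in the same samples. All 4 measured of 7 secondary-wall genes fell, with means from -2.40 to -0.60, among them HCT of lignin monomer synthesis and IRX15 of xylan synthesis (limma adjusted p = 0.00917 and 0.0126). Of 6 genes of light harvesting and Rubisco, which mark green cortex, 3 were measured, and LHCB4.3 fell (-0.75 ± 0.16, limma adjusted p = 0.0483). LHCB4.1 and LHCB4.2 did not pass with all lines, at -0.86 ± 0.44 and -0.63 ± 0.63, but did without line 1, at -1.11 and -0.99 (limma adjusted p = 0.0223 and 0.0249). The 5 calls made with all lines ended without line 2, without line 3 and with a dye term. No gene at all was called in those fits, so nothing particular to these markers is read from that. The calls of GUT1, a glycosyltransferase gene of the wall list, and LHCB4.3 also ended with a robust prior (limma adjusted p = 0.0508 and 0.0502) and with every spot fitted (0.0716 and 0.0783). Over all genes, 276 were called with the robust prior and 69 with every spot fitted. Of the phloem list 2 of 7 genes were measured. SWEET11, a sucrose exporter gene, was at 2.28, 0.16 and -0.50, with a mean of 0.64 ± 1.46 that was -0.17 without line 1, and CLE41 at 0.01 ± 0.34. Neither passed. The epidermal list had WSD1 alone, at -0.03 ± 0.08, which did not pass. Ratios give no level, so the presence of each tissue was not checked. The part of these tissues in the ICL ratio was not tested, and in stem RNA more cells of a type and more transcript per cell cannot be told apart.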

How the data were processed

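RNA of 3 nst1-1 nst3-1 lines was measured against wild type on 3 two-colour arrays. The authors deposited 1 log10 ratio per spot and array for 22236 spots. The base was inferred from a floor of exactly -2, a 100-fold ratio. Not given in the sources used here are scanner, background correction and dye normalization. Precision is limited by the number of arrays, and dim or saturated spots were not identified. The array with the mutant in Cy3 was turned, and the ratios were converted to log2. As deposited, line 2 correlated with lines 1 and 3 at -0.488 and -0.784.

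Spots were named through the platform annotation and the RefSeq gene table of TAIR10.1. Of 22236 spots 9335 had 1 gene (9317 found in the table), 40 several and 12861 none. Spots of 1 gene were averaged (79 genes had several), giving 9253 genes. The test was limma 3.58.1 in R 4.3.3 (lmFit and eBayes against 0, two-sided, Benjamini-Hochberg adjusted p under 0.05 over all genes). The code was also run on simulated data with independent noise on each array. The real arrays are not equally alike, so that run says nothing about the calls given here. Wild type was on every array, so its own spread is not estimated, and p-values measure only the spread between these arrays.

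The genes and lists were chosen with earlier results of these data known. Named were the rule genes, all measured genes of lists with up to 10, otherwise the called genes with the 3 highest and 3 lowest means, the 5 genes nearest to ICL, 2 ranked on each side, and the measured among 5 on each side along the chromosome. Alternatives were scaling, centring, a dye term, a robust prior, values of 0 left out, line 2 as deposited, a log2 reading, every spot fitted, a threshold of 0.1 and each line left out. Where a range of adjusted p-values over the alternatives is given, its highest value came from line 2 as deposited, where no gene was called.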

Additional observations from a re-analysis of the deposited data

Results flagged for a closer look

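Array spots with no gene name were left outside the comparison. Of these 12861 single spots, 19 stood at or above the lowest ICL log2 ratio (1.40) on all 3 arrays. Of the 9253 measured genes, some of them averaged over several spots, 4 others did so. Units and totals differ, so these counts are not set against each other. By the mean, 25 spots with no gene name were above ICL. Their identity was not analysed here, nor whether MLS or PCK1 is among the unnamed spots.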

How the results depend on the processing

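The ICL mean was 2.20 with scaled arrays, 2.12 with centred arrays, 2.22 with a dye term, 2.13 with values of 0 left out and between 1.94 and 2.50 without 1 line. It was 0.48 with line 2 as deposited, a setting that sets its sign against the others, and 0.64 if the deposited ratios are log2. Its sign could not turn when a line was left out, since all 3 were above 0. The 314 calls over all genes became 519 with scaled arrays, 1178 at a threshold of 0.1, 69 with every spot fitted (more features, each spot on its own), and 0 when limma had a dye term (smallest adjusted p 0.0989; 1592 genes at an unadjusted p under 0.05) or line 2 as deposited (92). Without 1 line they ranged from 0 to 1157. They were 0 without line 2 (1373 unadjusted) or line 3 (1430). The 1157 came without line 1, so all 3 of these fits had 2 arrays. The count of list genes called higher, 0, became 2 at a threshold of 0.1 (AT2G20420 and AAH) and ranged from 0 to 2 without 1 line, with AT5G38710 and AT1G21440 called without line 1. The 5 called lower became 8 with centred arrays, 9 with values of 0 left out, 10 at a threshold of 0.1, and 0 with a dye term (11 lower unadjusted), line 2 as deposited (0) or every spot fitted (10). Without 1 line they ranged from 0 to 9, with 0 without line 2 (9 lower unadjusted) or line 3 (12). The causes were not tested unless stated. No named gene reversed a call under any alternative listed. No paired analysis was possible because there is 1 group of ratios, each already mutant over wild type within an array, so that no further replicate block can be added.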
